A study of Homo sapiens with 6 samples.

Results

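Plasmin formation at the cell surface depends on a small set of genes, and 9 of them were followed here in HK-2 cells: the activators PLAU and PLAT, the receptors PLAUR and PLGRKT, the inhibitors SERPINE2, SERPINB2 and TFPI2, the secreted protease HTRA1 and the clearance receptor LRP1. They were taken from a list of gene symbols. Of the 9 symbols, 8 matched a row among the 26899 genes listed, and all 8 were among the 15299 genes that passed the filter on low counts. SERPINB2 was not analysed here. HK-2 is a human kidney proximal tubule line immortalised with human papillomavirus 16 genes. In order to ask what lowering ANXA2 does to the transcriptome, polyadenylated RNA was sequenced in 3 libraries labelled ANXA2 knockdown and in 3 labelled control. The cells of both groups were grown in the same medium with serum and were transfected with plasmids by a lipid reagent. The labels call the control both wild type and shCtrl, so it is not settled whether those cells carried a control hairpin. The hairpin sequence, and whether the cells were a clone or a pool, were not given in the sources used here. Nothing in the labels says that replicates were separate cultures, so p-values measure only the spread between these libraries.

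Each library held between 24231267 and 34561675 counted reads, with the lowest totals in control 1 and knockdown 3. ANXA2, the targeted gene, was measured in CPM (counts scaled to the depth of each library), and its mean was 1598 ± 119 CPM under the control label and 1539 ± 21.3 CPM under the knockdown label (SD, n = 3 each). The fitted log2 difference was -0.05 with a standard error of 0.075 (edgeR adjusted p = 0.848), and its 95% interval ran from -0.22 to 0.11. The RNA values therefore do not show the knockdown that the labels state, and the groups are called by their labels throughout. Protein was not measured in these files. S100A10, the partner of annexin A2, gave 918 ± 55.2 CPM against 843 ± 115 CPM (SD, n = 3 each), a log2 difference of 0.12 (edgeR adjusted p = 0.748). Among 9 proximal tubule markers, 3 (GGT1, PAX8 and PAX2) reached 1 FPKM (fragments scaled for gene length and library depth) in every library, whereas LRP2, CUBN, AQP1, ANPEP, SLC34A1 and SLC5A2 did not. Of 5 epithelial markers 4 reached it, with CDH1 between 0.01 and 0.11 FPKM. No leukocyte, endothelial or fibroblast marker did so. The summed leukocyte markers ran from 1.39 to 2.33 FPKM in the control group and from 1.79 to 3.18 FPKM in the knockdown group. For fibroblast markers the sums were 0.81 to 1.59 FPKM and 0.68 to 1.39 FPKM.

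Plasmin is a broad protease that cuts fibrin and matrix proteins and activates other proteases. It is made from plasminogen by urokinase (PLAU) and by tissue-type activator (PLAT), both of them serine proteases. Urokinase acts while bound to its lipid-anchored receptor uPAR (PLAUR), whereas plasminogen docks on proteins that offer a lysine at their carboxyl end, among them PLGRKT and the annexin A2 and S100A10 complex. Serpins such as SERPINE2 trap the activators in a covalent complex, and LRP1 takes such complexes into the cell. TFPI2 is a Kunitz-type inhibitor that blocks plasmin, and HTRA1 is a secreted serine protease that cuts matrix proteins. In the kidney, urokinase is made by tubule cells and is passed into the urine.

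PLAU, PLAUR and TFPI2 are shown with the sequence before their start sites, since an activator, its receptor and an inhibitor of plasmin are set beside AP-1 and NF-kB responsive genes further on. The sequences are RefSeq promoter entries on GRCh38.p14, 250 bases long and written 5′ to 3′ on the gene's own strand. PLAU has 2 entries, at chr10:73910360-73910609 and chr10:73910882-73911131 on the plus strand. PLAUR lies on the minus strand at chr19:43670170-43670419, and TFPI2 on the minus strand at chr7:93890754-93891003. Capitals mark matches to the AP-1 motif TGANTCA or to the NF-kB motif.
PLAU entry 1: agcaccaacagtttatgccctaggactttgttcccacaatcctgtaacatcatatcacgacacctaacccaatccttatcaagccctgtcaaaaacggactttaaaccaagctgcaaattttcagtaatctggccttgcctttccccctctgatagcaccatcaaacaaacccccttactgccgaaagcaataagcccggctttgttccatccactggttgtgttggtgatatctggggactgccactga
PLAU entry 2: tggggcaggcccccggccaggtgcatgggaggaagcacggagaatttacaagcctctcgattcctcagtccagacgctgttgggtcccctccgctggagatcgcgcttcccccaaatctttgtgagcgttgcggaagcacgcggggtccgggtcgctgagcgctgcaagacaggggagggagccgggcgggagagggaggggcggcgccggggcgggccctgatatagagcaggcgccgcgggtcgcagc
PLAUR: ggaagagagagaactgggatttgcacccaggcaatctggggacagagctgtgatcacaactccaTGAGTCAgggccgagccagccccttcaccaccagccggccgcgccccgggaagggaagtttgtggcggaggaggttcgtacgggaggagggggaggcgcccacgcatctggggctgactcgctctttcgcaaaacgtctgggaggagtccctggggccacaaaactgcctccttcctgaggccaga
TFPI2: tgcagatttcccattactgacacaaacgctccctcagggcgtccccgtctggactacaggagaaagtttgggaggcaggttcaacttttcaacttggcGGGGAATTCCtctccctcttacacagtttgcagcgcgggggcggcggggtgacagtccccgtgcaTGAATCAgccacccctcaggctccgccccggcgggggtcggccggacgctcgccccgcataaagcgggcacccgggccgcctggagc
Both strands were searched. The AP-1 match of PLAUR, TGAGTCA, lay 186 to 180 bases before the start, and that of TFPI2, TGAATCA, 87 to 81 bases before it. TFPI2 also held an NF-kB match from 152 to 143 bases before the start, which did not overlap the AP-1 match. AP-1 matches occurred in 6.57% of all 35116 promoter windows of this length and NF-kB matches in 5.21%. Neither motif was found in these windows of PLAU, SERPINE2, PLGRKT, HTRA1 or LRP1, and the window of PLAT was not analysed here. The second PLAU entry held 3 GGGCGG matches, the core of an SP1 site, which 42.6% of windows contained. A match describes letters only.

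The 8 genes spanned a wide range of levels. PLAU was the most abundant, with a mean of 294.7 FPKM over the 6 libraries, and ranked 184th of 15872 protein-coding genes. TFPI2 followed at 48.9 FPKM, then SERPINE2 at 41.9, PLAUR at 29.9, HTRA1 at 14.5, PLGRKT at 9.04, PLAT at 5.42 and LRP1 at 1.495 FPKM, all as means over the 6 libraries. The order was firm at its ends and between HTRA1 and PLGRKT. PLAU exceeded TFPI2 in 6 of 6 libraries, by 3.98 to 6.96 times. PLAT exceeded LRP1 in 6 of 6, by 1.81 to 4.23 times. TFPI2 and SERPINE2 could not be ordered, since TFPI2 was the higher in 4 of 6 libraries and the ratio ran from 0.88 to 1.31. HTRA1 exceeded PLGRKT in 6 of 6, by 1.21 to 2.6 times, and their ranges did not overlap. In every library PLAUR lay below SERPINE2 and above HTRA1, and PLGRKT lay above PLAT. The ranges of each of these pairs over the libraries nevertheless overlapped. LRP1, a very large receptor with 89 exons in its canonical transcript, still had 552 to 1156 reads per library at this low level per length. Plasminogen itself (PLG) was listed at a mean of 0.00833 FPKM and was too low to test.

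**Figure D1:**
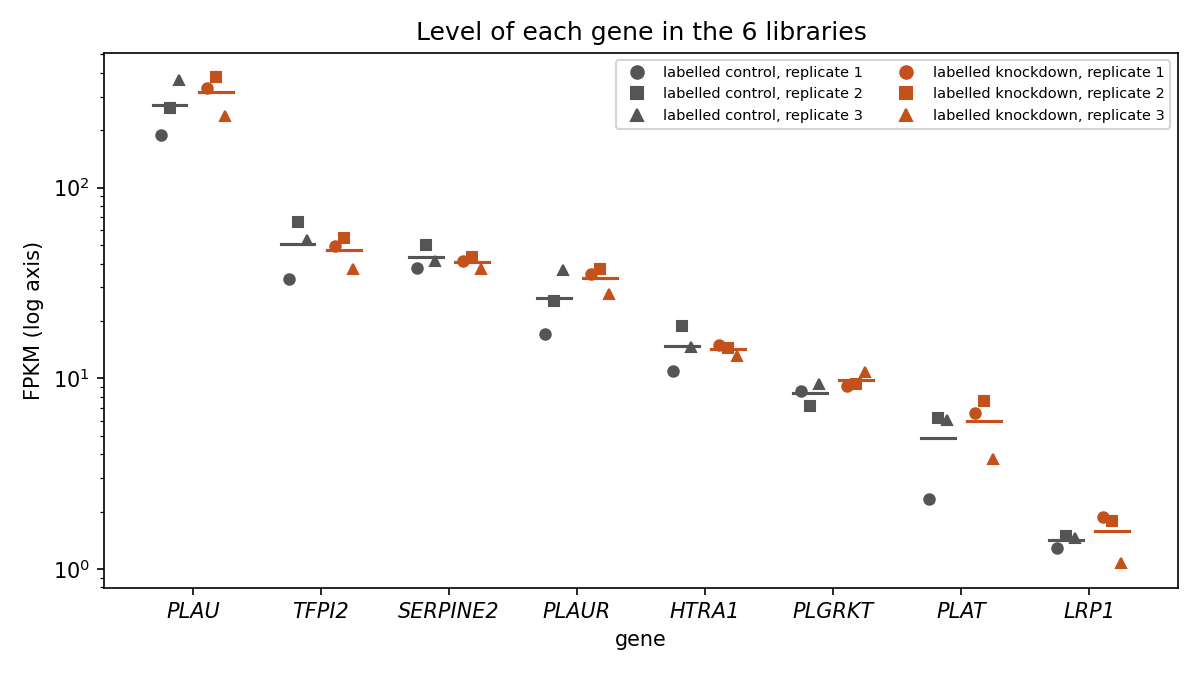
Level of each gene in FPKM on a log axis, one point per library, grey for the libraries labelled control and orange for those labelled knockdown, with a bar at each group mean. PLAU lies above all others, from 190 to 379 FPKM, and LRP1 lies lowest, from 1.07 to 1.88 FPKM, while the colours overlap for every gene.

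Between the labelled groups, none of the 8 genes passed an adjusted p of 0.05 by edgeR's quasi-likelihood test, and across all 15299 genes 0% did. At an unadjusted p under 0.05, 0 of the 8 passed against 8.18% of all tested genes (1251 genes, 590 higher and 661 lower). DESeq2 called 32 genes at an adjusted p of 0.05, none of them among the 8. The CPM ranges of the groups overlapped for all 8, whereas they did not overlap for 15.6% of tested genes. The estimate was above 0 for 5 of 8 and for 49% of all tested genes. The median estimate of the 8 was 0.20 on the log2 scale, against -0.01 over all tested genes, whose estimates had an SD of 0.37.

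PLAU encodes urokinase, the principal activator in these cells by level. Its values were 190, 263 and 366 FPKM in control 1, 2 and 3, and 332, 379 and 238 FPKM in knockdown 1, 2 and 3. The lowest value was a control library and the highest a knockdown library, but control 3 exceeded knockdown 1 and 3. The group means were 316 ± 71.8 FPKM in the knockdown group and 273 ± 88.4 FPKM in the control group (SD, n = 3 each). The fitted fold was 1.17 with a 95% interval from 0.817 to 1.68 (edgeR adjusted p = 0.789, exact two-sided permutation p = 0.6, where 0.1 is the smallest that 3 against 3 allows). On the log2 scale the estimate of 0.23 was 0.03 without control 1 and reached 0.50 without control 3.

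PLAT encodes tissue-type plasminogen activator, best known from fibrin clots and vessel walls. Its values were 2.32, 6.19 and 6.06 FPKM in control 1 to 3 and 6.61, 7.58 and 3.75 FPKM in knockdown 1 to 3. Control 1 stood apart at the low end, on 166 reads, and knockdown 3 was the next lowest, on 315 reads. The fold was 1.25 (95% interval 0.705 to 2.2, edgeR adjusted p = 0.815). Without control 1 the log2 estimate of 0.32 became -0.01, so its direction rested on that library. PLAU exceeded PLAT per length by 42.5 to 81.9 times in the control libraries and by 50.04 to 63.5 times in the knockdown libraries.

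PLAUR encodes uPAR, which holds urokinase at the membrane. In control 1, 2 and 3 it gave 17.1, 25.3 and 37.2 FPKM, and in knockdown 1, 2 and 3 it gave 35.1, 37.5 and 27.5 FPKM. Control 3 lay within the knockdown range, and the 2 lowest libraries were control 1 and control 2. The means were 33.4 ± 5.22 FPKM and 26.5 ± 10.1 FPKM (SD, n = 3 each, knockdown first). PLAUR had the largest estimate of the 8, a fold of 1.27 with a 95% interval from 0.867 to 1.87 (edgeR adjusted p = 0.7, exact permutation p = 0.3). Its log2 estimate of 0.35 ranged from 0.12 without control 1 to 0.68 without control 3. In edgeR, the unadjusted p without control 3 was 0.01 and the adjusted p was 0.53. The ratio of PLAU to PLAUR stayed between 8.66 and 11.1 in all 6 libraries.

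PLGRKT is a membrane receptor that exposes a terminal lysine to plasminogen. It showed 8.56, 7.18 and 9.29 FPKM in control 1 to 3 and 9.08, 9.30 and 10.8 FPKM in knockdown 1 to 3. Only control 3 reached into the knockdown range. The fold was 1.18 (95% interval 0.899 to 1.54, edgeR adjusted p = 0.714, exact permutation p = 0.2). With 207 to 309 reads per library, counting error alone was 6.95% of the value in the shallowest case.

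Among the inhibitors the estimates lay slightly below 0. SERPINE2 (protease nexin-1), which inhibits thrombin, urokinase and plasmin, had 37.9, 50.2 and 41.3 FPKM in the control libraries and 41.2, 43.3 and 37.5 FPKM in the knockdown libraries. Apart from control 2 these values were close together, and the fold was 0.953 with a 95% interval from 0.791 to 1.15 (edgeR adjusted p = 0.88). This was the narrowest interval of the 8. Without control 2 the log2 estimate of -0.07 became 0.05.

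TFPI2 had 33.3, 66.0 and 53.3 FPKM in control 1 to 3 and 49.2, 54.5 and 37.3 FPKM in knockdown 1 to 3. Both extremes were control libraries, and the knockdown values lay between them. The fold was 0.936 (95% interval 0.656 to 1.34, edgeR adjusted p = 0.919). Its log2 estimate of -0.09 became 0.13 without control 2 and 0.05 without knockdown 3, and was -0.32 without control 1.

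HTRA1 gave 10.95, 18.7 and 14.6 FPKM in the control libraries and 15.01, 14.5 and 13.1 FPKM in the knockdown libraries. As for TFPI2, control 1 was lowest and control 2 highest, with all knockdown values between. The fold was 0.973 (95% interval 0.737 to 1.28, edgeR adjusted p = 0.96), and the log2 estimate of -0.04 became 0.16 without control 2 and 0.02 without knockdown 3. LRP1 had 1.28, 1.49 and 1.46 FPKM in control 1 to 3 and 1.88, 1.79 and 1.07 FPKM in knockdown 1 to 3. Knockdown 3 was the lowest library and the other knockdown libraries were the highest. The fold was 1.13 (95% interval 0.826 to 1.55, edgeR adjusted p = 0.811). Without knockdown 3 the log2 estimate was 0.40 against 0.18 with it, with an unadjusted edgeR p of 0.0129 and an adjusted p of at least 0.566 under every alternative tried.

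**Figure D2:**
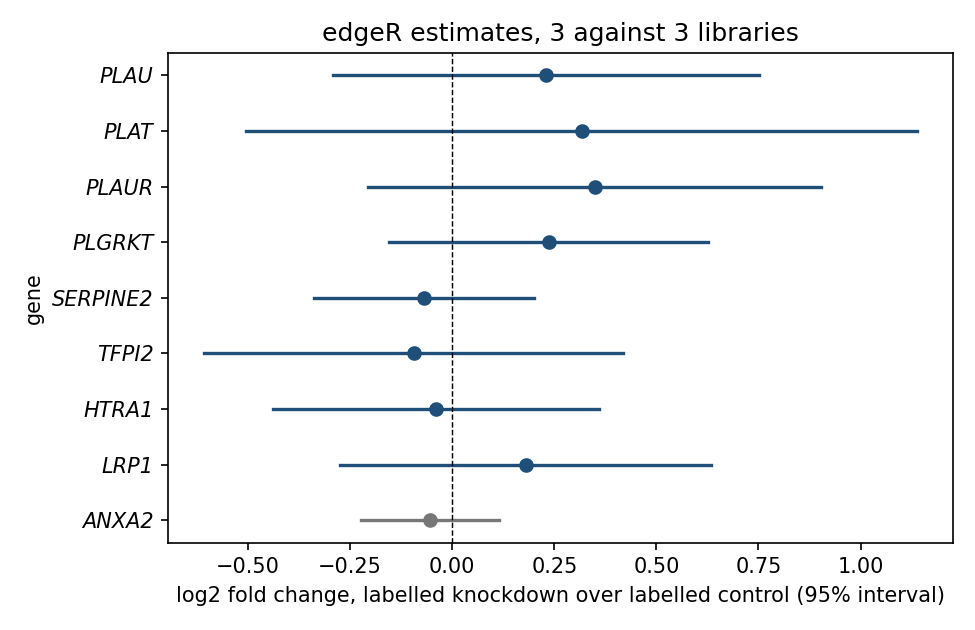
Points are edgeR log2 fold changes of libraries labelled knockdown over libraries labelled control (3 against 3) and bars are 95% intervals, for the 8 genes and for ANXA2 in grey. Every interval crosses 0, and PLAT has the widest, from -0.50 to 1.14.

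The genes varied between libraries of the same label. Over the 6 libraries the highest CPM exceeded the lowest by 3.28 times for PLAT, 2.21 for PLAUR, 2.01 for PLAU and 1.94 for TFPI2, but by 1.32 times for SERPINE2. The SD of log2 CPM was 0.644 for PLAT and 0.445 for PLAUR, where the median tested gene had 0.239. SERPINE2 (0.147) and PLGRKT (0.199) lay below that median. Control 1 was the lowest library for 5 of the 8 genes (PLAU, PLAT, PLAUR, TFPI2 and HTRA1) and above the mean for none. Knockdown 2 was the highest for PLAU, PLAT and PLAUR and lay above the mean for all 8. Control 2 was the highest for SERPINE2, TFPI2 and HTRA1 and the lowest for PLGRKT. Knockdown 3 lay above the mean for PLGRKT alone. In bulk RNA, fewer cells with a transcript and less of it per cell cannot be told apart.

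**Figure D3:**
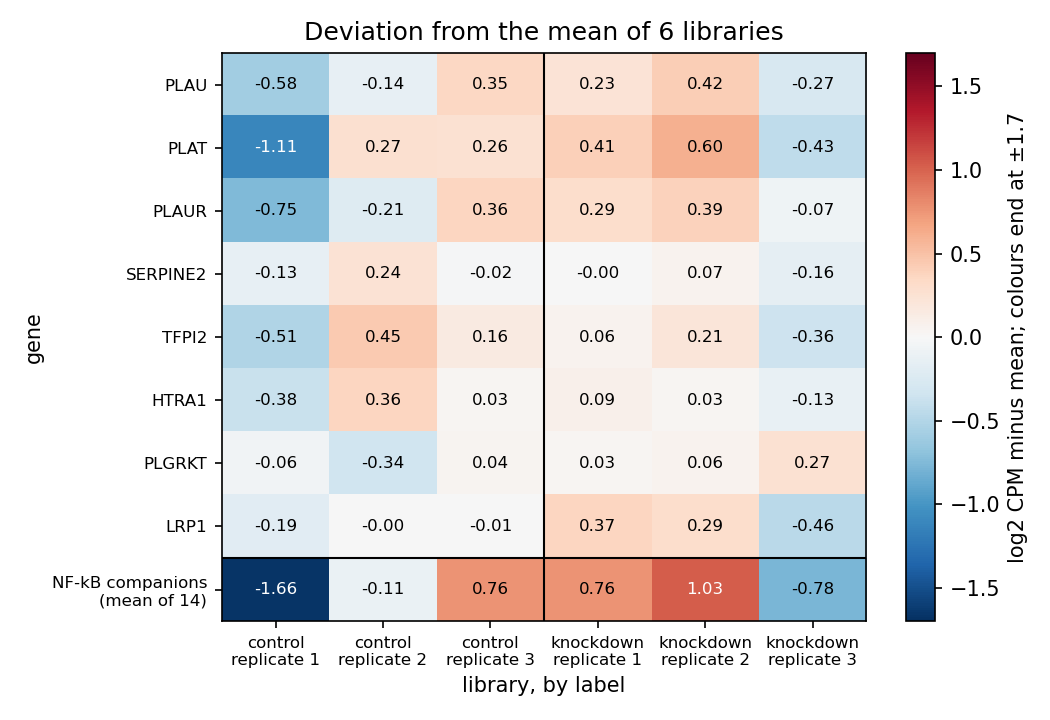
Deviation of each gene from its own 6-library mean in log2 CPM, with libraries in columns and the 8 genes and the mean of 14 NF-kB responsive genes in rows, blue for below and red for above the mean. Control 1 is below the mean for all 8 genes, and control 2 is the highest column for SERPINE2, TFPI2 and HTRA1.

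In order to see which genes moved together, all 28 pairs were correlated over the 6 libraries, which pools both labels. PLAU and PLAUR gave Pearson's r = 0.963 (exact permutation p = 0.00833, adjusted over the 28 pairs 0.068) and Spearman's rho = 0.943. Without the 2 libraries farthest from the median of PLAU, r was 0.926. PLAU and PLAT gave r = 0.907 (exact permutation p = 0.00833, adjusted 0.068), rho = 0.829, and r = 0.716 without those 2 libraries. The inhibitors and HTRA1 also correlated with each other. TFPI2 and HTRA1 gave r = 0.939 (exact permutation p = 0.00694, adjusted 0.068) and SERPINE2 and TFPI2 gave r = 0.921 (exact permutation p = 0.00972, adjusted 0.068), with rho of 0.829 and 0.886. Both pairs stayed at r = 0.861 or above without the 2 libraries farthest from the median of the gene named first. PLAT and TFPI2 correlated at r = 0.881 over all libraries but at -0.304 without 2, so that relation rested on those libraries. Some pairs across these sets were also high. PLAT and HTRA1 gave r = 0.801 (exact permutation p = 0.05, adjusted 0.175), and without control 1 and control 2 PLAUR gave r = 0.999 with TFPI2, 0.953 with SERPINE2 and 0.892 with HTRA1. PLGRKT ran opposite to SERPINE2 over all libraries (r = -0.782, exact permutation p = 0.0861), but r was 0.96 without control 2 and knockdown 3. No pair passed after adjustment.

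NF-kB and AP-1 are transcription factors, of which the first drives inflammatory genes and the second answers growth signals, and both are known to act on the PLAU gene. Of 17 NF-kB responsive genes listed as companions, 14 could be tested, with CXCL8 and IL6 the most abundant. Their mean log2 CPM was 5.31, 6.86 and 7.74 in control 1 to 3 and 7.74, 8.01 and 6.19 in knockdown 1 to 3. The libraries ran from control 1, through knockdown 3 and control 2, to the other 3, and the labelled groups overlapped (7.31 ± 0.978 against 6.64 ± 1.23, SD, n = 3 each, exact permutation p = 0.6). CXCL8, a neutrophil chemokine, ranged from 88.4 to 874 FPKM, and IL6 from 73.4 to 642 FPKM.

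The companion lists were chosen with earlier results of these data known, so the permutation p-values of these relations are descriptive only. PLAU followed the NF-kB mean closely, with r = 0.987 (exact permutation p = 0.00278, adjusted over 16 relations 0.0334). Without control 1 and knockdown 3, the 2 libraries farthest from the median of that mean, PLAU gave r = 0.98. Its Spearman's rho was 0.943 (exact permutation p adjusted over 16 relations 0.134). PLAT gave r = 0.958 (exact permutation p = 0.00417, adjusted 0.0334) and the same rho, but r = 0.661 without the 2 farthest libraries. PLAUR gave r = 0.95 (exact permutation p = 0.0111, adjusted 0.0592), rho = 0.886 and r = 0.984 without them. HTRA1, SERPINE2 and TFPI2 gave r between 0.477 and 0.757, which turned to between -0.972 and -0.828 without control 1 and knockdown 3. PLGRKT gave r = 0.0554 (exact permutation p = 0.933) over all 6 libraries and 0.98 without those libraries, and LRP1 gave 0.774 (exact permutation p = 0.0819, adjusted 0.216) and 0.607. The values of HTRA1, SERPINE2, TFPI2 and PLGRKT thus depended on whether control 1 and knockdown 3 were included. Control 1 and knockdown 3, the lowest libraries for the NF-kB mean, PLAU and PLAT, were also the 2 with the fewest reads and the fewest genes detected (18861 and 19569, against up to 21819), and the part of depth in these relations was not tested.

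**Figure D4:**
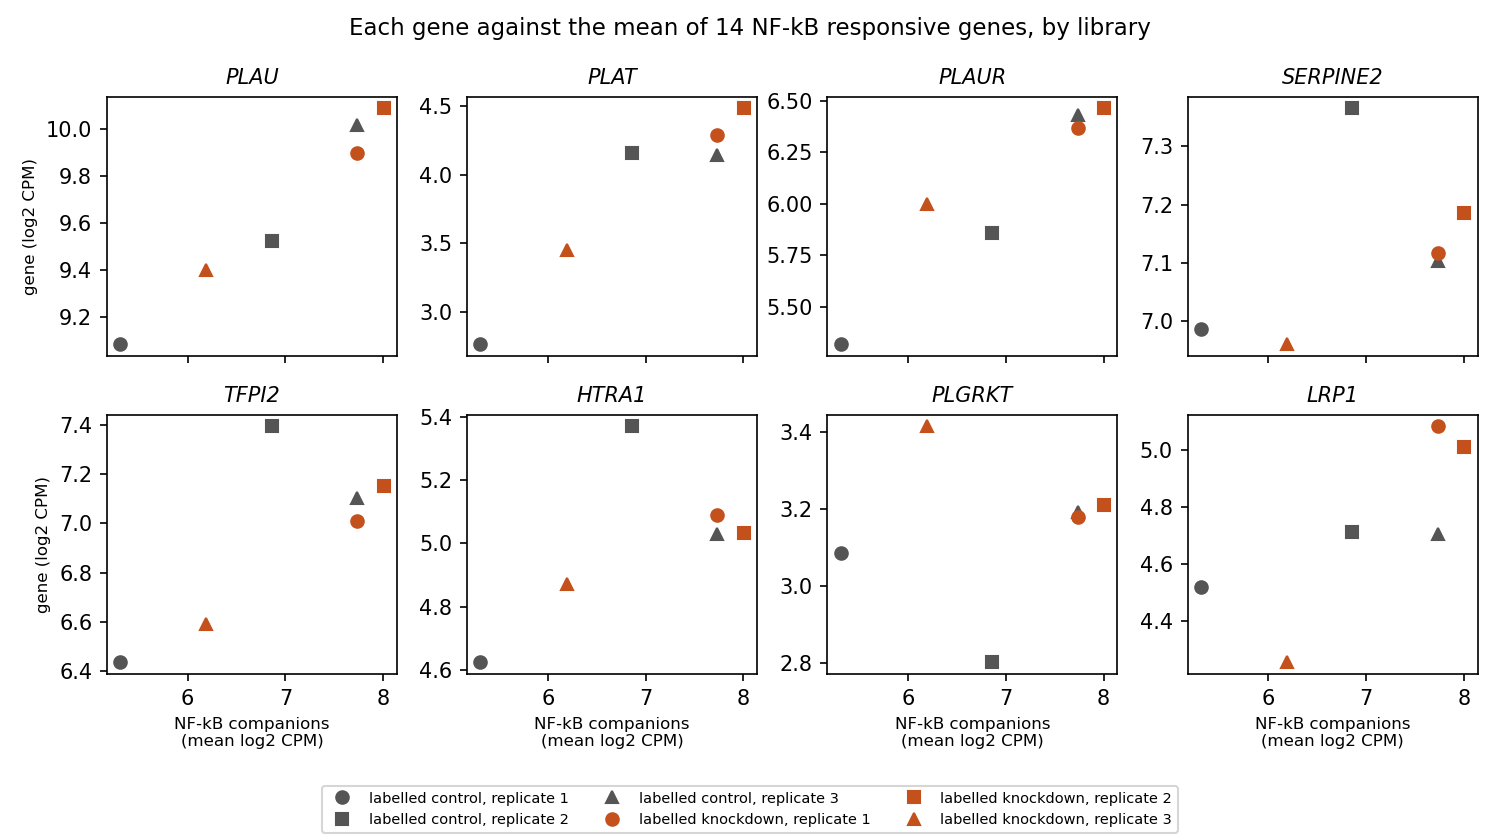
Each panel sets one gene's log2 CPM against the mean log2 CPM of 14 NF-kB responsive genes, with one marker per library, grey for labelled control and orange for labelled knockdown. PLAU, PLAT and PLAUR are lowest in control 1, at 5.31 on the axis, and highest in knockdown 2, at 8.01, whereas SERPINE2, TFPI2 and HTRA1 are highest in control 2.

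Of 20 AP-1 and ERK responsive genes listed, 19 were tested, and their mean log2 CPM ran only from 5.44 to 5.70 over the libraries. PLAU gave r = 0.165 with this mean, PLAT -0.136 and PLAUR 0.28. PLGRKT gave 0.805 and SERPINE2 -0.776, each with an exact permutation p adjusted over 16 relations of 0.216.

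The genes whose log2 CPM was most like that of each member over the 6 libraries were sought among 13222 tested genes with a mean of at least 1 CPM. As the best of so many, their r values are given as a description. For PLAU they were NFKBIA (r = 0.998), CCL2 and SLC2A6 (both 0.997). For PLAT they were C1QTNF1 (0.998), BIRC3 (0.996) and IL6 (0.995), and for PLAUR IER3, PBDC1 (both 0.997) and PPIF (0.994). NFKBIA, CCL2, BIRC3 and IL6 are on the list of NF-kB responsive genes, so these matches are not separate from the relations with that mean. IER3 is on the list of AP-1 and ERK responsive genes, so single genes of that list can differ from its mean. PLGRKT was matched by POLR2H (0.997), IFT43 and ENDOG (both 0.994). SERPINE2 was closest to CENPE, HKDC1 (both 0.994) and JMJD1C (0.992), TFPI2 to ICE1 (0.996) and EIF2S2 (0.994), and HTRA1 to TBC1D8B (0.997), ITPK1 (0.995) and FAM102A (0.994). LRP1 had the loosest matches, namely CELF4 (0.987), ZNF692 and NPRL3 (both 0.986).

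Other genes of the pathway were grouped in lists by role, and none of them passed an adjusted p of 0.05 in edgeR. Of 10 tested docking proteins for plasminogen other than PLGRKT, 8 had estimates above 0 and 2 below (median 0.13 on the log2 scale). The glycolytic enzyme ENO1, also a surface docking protein, was the most abundant at a mean of 3409 FPKM and gave a log2 estimate of 0.15 (edgeR adjusted p = 0.622). HMGB1 had the smallest unadjusted p, with 270 ± 12.8 CPM in the knockdown group and 335 ± 23.2 CPM in the control group (SD, n = 3 each), a log2 estimate of -0.31 (edgeR adjusted p = 0.599). All 8 tested genes on the list of other activators and upstream proteases had estimates above 0 (median 0.22), with no unadjusted p under 0.05. Among them were the cathepsins CTSB (0.08) and CTSL (0.14), KLK1 (1.02) and DPP4 (0.24). KLK1 held only 15 to 73 reads per library, the most in knockdown 3, and its estimate had a standard error of 0.489. Of 12 tested genes on the list of other serpins and inhibitors of serine proteases, 9 were above 0 and 3 below (median 0.05). SERPINF2, the main circulating inhibitor of plasmin, gave 11.6 ± 1.94 CPM against 7.32 ± 2.46 CPM (SD, n = 3 each, log2 estimate 0.67, edgeR adjusted p = 0.605).

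Among 16 tested partners and relatives of uPAR, 10 were above 0 and 6 below. ITGB1, the integrin beta 1 chain, gave 394 ± 12.7 CPM against 496 ± 76.4 CPM (SD, n = 3 each, log2 estimate -0.33, edgeR adjusted p = 0.599). ITGA3 and CD59 gave log2 estimates of 0.23 and -0.18. Of 13 tested relatives, ligands and chaperones of LRP1, 8 were above 0 and 5 below. APOE, a lipid carrier that LRP1 binds, had 29.8, 26.2 and 30.1 CPM in control 1 to 3 and a mean of 44.3 ± 3.94 CPM (SD, n = 3) in the knockdown group. The groups did not overlap for APOE, as for 15.6% of all tested genes. The log2 estimate of APOE was 0.63 with a standard error of 0.118 (edgeR adjusted p = 0.419). SNX17, a sorting adaptor for LRP1, gave a log2 estimate of 0.49 (edgeR adjusted p = 0.599). In the HTRA family HTRA2 gave 0.10, and HTRA3 held only 2 to 17 reads per library. Of 15 tested plasmin substrates and matrix proteases, 4 were above 0 and 11 below (median -0.13). FN1, the plasmin substrate fibronectin, gave a log2 estimate of -0.25 (edgeR adjusted p = 0.741). The collagenase MMP1, a protease of the matrix, gave 10.2 ± 0.632 CPM against 16.2 ± 5.79 CPM (SD, n = 3 each, log2 estimate -0.67, edgeR adjusted p = 0.599).

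Some loci carry a second gene on the other strand, and the use of strand in counting was not given in the sources used here, so reads of such a pair cannot be told apart where their exons overlap. For each member gene, only the exons of its canonical transcript were compared with those of other genes. PLAU, at chromosome 10, 73909177 to 73917496 on the plus strand (GRCh38, GENCODE 44), shares 429 of its 2343 exon bases (18.3%) with the antisense lncRNA C10orf55, which was listed with 27 to 74 reads against at least 13239 for PLAU. LRP1, at chromosome 12, 57128483 to 57213361 on the plus strand, shares 0.395% of its exon bases with STAT6. STAT6 had 5356 to 9200 reads against 552 to 1156 for LRP1, and the part of shared reads in the LRP1 count was not tested. LRP1 also shares 0.751% with the antisense lncRNA LRP1-AS, which had 0 to 1. TFPI2, at chromosome 7, 93885396 to 93890753 on the minus strand, shares 1.99% with GNGT1, not analysed here. No other gene's exons overlapped the canonical exons of PLAT (chromosome 8, 42174718 to 42207709, minus), PLAUR (chromosome 19, 43646095 to 43670547, minus), SERPINE2 (chromosome 2, 223975045 to 224039318, minus), PLGRKT (chromosome 9, 5357971 to 5437925, minus) or HTRA1 (chromosome 10, 122458551 to 122514907, plus).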

How the data were processed

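The authors deposited raw read counts per gene and, in a second table, FPKM values per gene rounded to 2 decimals, for 6 libraries of HK-2 cells. The submitters' notes name bcl2fastq, TopHat2, edgeR and GRCh38 without versions. The counter, annotation release and use of strand were not given in the sources used here. Totals ran from 24231267 to 34561675 counted reads. Groups followed the treatment label (3 against 3).

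Counts were tested in R 4.3.3 with edgeR 4.0.16 (TMM scaling, filterByExpr with a minimum count of 10 and a total of 15, quasi-likelihood F test, Benjamini-Hochberg threshold 0.05) over all 15299 genes that passed. Log2 CPM used a prior count of 2. FPKM served for levels between genes. Correlations and single values used exact two-sided permutation tests. Fits were tested on simulated data first. The alternatives were other scalings, no filter, DESeq2 1.42.0, limma 3.58.1 (voom), log2 FPKM with pseudocounts of 1 and 0.1, a replicate block and each library left out.

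The members and lists were chosen with earlier results of these data known. Named genes were the members, ANXA2, S100A10, the 3 genes most correlated with each member, and per list those past the threshold or, with none, the 2 of highest FPKM and the 2 of smallest p. Some genes that this rule names are not reported here. PLG, CDH1 and the cell markers were named besides. Intervals of fold changes carry the spread between libraries, and the counting error given for PLGRKT covers counting only. Promoters were RefSeq entries, matched by symbol.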

Additional observations from a re-analysis of the deposited data

How the results depend on the processing

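All 16 alternatives left 0 of the 8 genes past an adjusted p of 0.05. Of 128 estimates of these genes under the alternatives, 122 kept their direction and 6 reversed, each of the 6 with a library left out. With each library left out in turn, the log2 estimate ran from -0.0071 to 0.57 for PLAT, from -0.15 to 0.0463 for SERPINE2, from -0.32 to 0.13 for TFPI2 and from -0.21 to 0.16 for HTRA1, where the values on the other side of 0 came without control 1 for PLAT, without control 2 for SERPINE2, and without control 2 or knockdown 3 for TFPI2 and HTRA1. The range for ANXA2 was -0.11 to -0.02. The count of all genes past an adjusted p of 0.05, 0 in edgeR with the filter, was 165 without a filter on low counts, 32 in DESeq2 and 0 to 4 with a library left out, the 4 arising without knockdown 2. The count at an unadjusted p under 0.05 was 1251, and 2078 without a filter. It ran from 505 without knockdown 1 to 1947 without control 1. Among the 8 genes, 2 (PLAU and PLAUR) reached an unadjusted p under 0.05 without the filter, with adjusted p of 0.535 and 0.333 in edgeR, and 0 to 2 did with a library left out. The cause was not tested. The log2 ratio of PLAU to PLAT differed between the labels by -0.13, and by -0.37 to 0.10 with a library left out. The deviations of libraries with the same replicate number correlated at -0.06, 0.12 and -0.20, and those with different numbers at -0.226 to 0.217. With 3 libraries per group, these values cannot settle whether the numbers pair the samples. A replicate block gave 0 genes past an adjusted p of 0.05, 1076 at an unadjusted p under 0.05 and a log2 estimate of 0.41 for PLAUR.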

Other observations

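Coagulation shares its proteases and inhibitors with the plasmin system. Of 5 tested genes at its start, 3 had estimates above 0 and 2 below, and none passed an adjusted p of 0.05 in edgeR. F3, the tissue factor that starts the cascade and that TFPI inhibits, gave 128, 85.7 and 114 CPM in control 1 to 3 and a mean of 140 ± 3.39 CPM (SD, n = 3) in the knockdown group. Its groups did not overlap, as for 15.6% of all tested genes, and its log2 estimate was 0.36 (edgeR adjusted p = 0.605). TFPI gave 37.6 ± 5.52 CPM against 44.2 ± 1.34 CPM (SD, n = 3 each, log2 estimate -0.23, edgeR adjusted p = 0.637). PROCR, the endothelial protein C receptor, gave -0.01 and PROS1 (protein S) 0.14 on the log2 scale.

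The NF-kB responsive genes all had estimates above 0 between the labels, 14 of 14 with a median of 0.53, and none passed an adjusted p of 0.05 in edgeR. They vary together by library, so the 14 are not independent. ICAM1, an adhesion receptor for leukocytes, gave 430 ± 133 CPM against 268 ± 98.8 CPM (SD, n = 3 each, log2 estimate 0.69, edgeR adjusted p = 0.605). Of 19 AP-1 and ERK responsive genes, 11 were above 0 and 8 below. EPHA2, a receptor tyrosine kinase, gave 327 ± 12 CPM against 253 ± 43.1 CPM (SD, n = 3 each, log2 estimate 0.37, edgeR adjusted p = 0.599), and JUN, a subunit of AP-1, gave 272 ± 37.9 CPM against 198 ± 57 CPM (SD, n = 3 each, log2 estimate 0.45, edgeR adjusted p = 0.608).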
